A study of Homo sapiens with 12 samples.

Results

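The nuclear genes of the respiratory chain and ATP synthase were followed in Huh7 cells, a human hepatocellular carcinoma line, after treatment with graphene oxide (GO) and 2 materials made from it. Members were all gene rows with a symbol of the NDUF, SDHA to SDHD, UQCR, CYC1, CYCS, COX4 to COX8 or ATP5 kind, leaving out symbols that end like those of pseudogenes. At a limit of 10 counts in 3 or more samples, 90 such rows passed and 28 did not, out of 17092 genes that passed this filter in the whole table. They comprised 45 genes of complex I (7 core subunits, 30 accessory subunits and 8 assembly factors), 4 of complex II, 9 of complex III, 13 of complex IV and 15 of complex V, with the electron carrier CYCS. The remaining 3 (the antisense RNAs NDUFA6-AS1 and NDUFB2-AS1, and ATP5S) were assigned to none of the complexes. NDUFA4 and NDUFA4L2 were counted with complex IV. Those 28 rows had at most 56 counts over all 12 samples. Of these, 19 were second entries of a symbol already among the members, and the other 9 were the isoforms COX4I2, COX6A2, COX6B2, COX7A1, COX7B2, COX8C and ATP5L2 and the readthrough transcripts ATP5J2-PTCD1 and NDUFC2-KCTD14.

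RNA from 12 samples in 4 groups of 3 was sequenced: untreated cells, and cells exposed for 6 h to GO at 400 µg/mL, to GO–Rg3 at 400 µg/mL, or to GO–Rg3–DOX at 100 µg/mL. Rg3 is a ginsenoside, a saponin of ginseng, and DOX is doxorubicin, an anthracycline that binds DNA and inhibits topoisomerase II. GO–Rg3–DOX was given at a lower dose than the other 2 materials, and its changes are therefore set beside theirs without a test between them. The labels do not say whether replicates were separate cultures, so the p-values measure the spread between these samples, which may be technical.

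Complexes I to IV pass electrons from NADH and succinate to oxygen, and complexes I, III and IV pump protons across the inner mitochondrial membrane. Complex V, the ATP synthase, uses that gradient to make ATP. Most subunits are encoded in the nucleus and imported into mitochondria, where they assemble with a few subunits encoded by mitochondrial DNA. Complex II is encoded in the nucleus alone. Hepatocytes are rich in mitochondria, and the transcription factors NRF1 and GABP bind the promoters of many of these nuclear genes.

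Counts per sample totalled 27802871 to 38877420. The hepatocyte markers ALB, AFP, TTR, APOA1, APOB, SERPINA1 and HNF4A were present at 158 CPM or more in every sample, whereas PTPRC, PECAM1 and CD68 had at most 7 counts in any sample and COL1A1 at most 0.79 CPM. Mitochondrially encoded genes took 5.31% to 6.28% of the counts in untreated samples and 6.89% to 7.42% after GO–Rg3. Their share was 24.1%, 12.1% and 14.8% in the 3 GO samples and 12.8% to 19.4% after GO–Rg3–DOX. The 90 members took 1.005% to 1.03% of the counts in untreated samples, 0.966% to 0.990% with GO–Rg3–DOX, 0.663% to 0.777% with GO and 0.744% to 0.811% with GO–Rg3. These shares include the mitochondrial counts in the total. Of the counts outside mitochondrially encoded genes, the members took 1.06% to 1.10% in untreated samples and 1.13% to 1.20% with GO–Rg3–DOX. That share was 0.80% to 0.88% with GO–Rg3 and 1.02%, 0.80% and 0.78% in the 3 GO samples. GO replicate 1, the sample with the highest mitochondrial share, stood apart in the members too, with 80 of the 90 above both other GO samples. The study reported its lowest RNA integrity for the first GO sample it listed, without replicate numbers. The part of the mitochondrial share or of RNA integrity in these differences was not tested. Another annotated gene lay on the same strand within 31 members and on the opposite strand within 40, and 136 rows named as pseudogenes resemble members, so the counts of such genes may hold reads of the other locus. In bulk RNA, fewer cells and less RNA per cell cannot be told apart.

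Relative to all genes, the median of the nuclear respiratory chain genes was lower after GO and after GO–Rg3 and higher after GO–Rg3–DOX, but in each comparison most members did not pass the test. The median of the 90 log2 fold changes, minus that of all genes tested, was 0.34 for GO–Rg3–DOX, -0.39 for GO and -0.46 for GO–Rg3. At a Benjamini-Hochberg adjusted p below 0.01 in the quasi-likelihood test of edgeR, 35 of the 90 members (38.9%) fell and 0 rose after GO, while 15.4% of all genes tested fell and 12.1% rose. At an unadjusted p below 0.05, 4 members were higher after GO, and DESeq2 called 1. After GO–Rg3, 1 member fell and 0 rose, against 0.105% and 0.0585% of all genes. No member was higher after GO–Rg3 at an unadjusted p below 0.05, and DESeq2 called 0. Even so, 83 of the 90 fold changes after GO–Rg3 were below 0, and in 68 members (75.6%) every GO–Rg3 sample lay below every untreated sample, which was the case for 16.6% of all genes. The same comparison for GO gave 47 members (52.2%) against 29.9% of all genes. After GO–Rg3–DOX, 31 members (34.4%) rose and 5 (5.56%) fell, against 25.5% and 30.5% of all genes. In 47 members (52.2%) every GO–Rg3–DOX sample lay above every untreated one, compared with 35% of all genes. These calls depend on the scaling, since with library totals alone in place of TMM factors 11 members rose and 24 fell after GO–Rg3–DOX, against 12.6% and 42.7% of all genes. All 3 comparisons use the same untreated samples.

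Sample by sample, the median level of the members relative to the untreated mean, minus that of all genes, was -0.07, -0.58 and -0.63 on the log2 scale in the 3 GO samples. It was -0.48, -0.47 and -0.40 in the GO–Rg3 samples and 0.54, 0.20 and 0.20 in the GO–Rg3–DOX samples, whereas the untreated samples lay between -0.02 and 0.02. GO–Rg3 samples were thus close to each other, and the GO and GO–Rg3–DOX groups each had a first replicate above the others. GO replicate 1 had 47 members below all untreated samples and 39 above them, while GO replicates 2 and 3 each had 72 below. Over all genes tested, 43.5% lay below and 43.2% above in GO replicate 1, so its number of members above was near that of all genes, and 41.8% and 41.3% lay below in GO replicates 2 and 3. Without GO replicate 1, 56 members fell after GO, including all 35 above, against 15.8% of all genes. The median of the members was then -0.61 relative to all genes. Leaving out GO replicate 3 gave 18 calls, and leaving out untreated replicates 2 and 3 gave 23 and 20, without the shares of all genes given here.

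**Figure D1:**
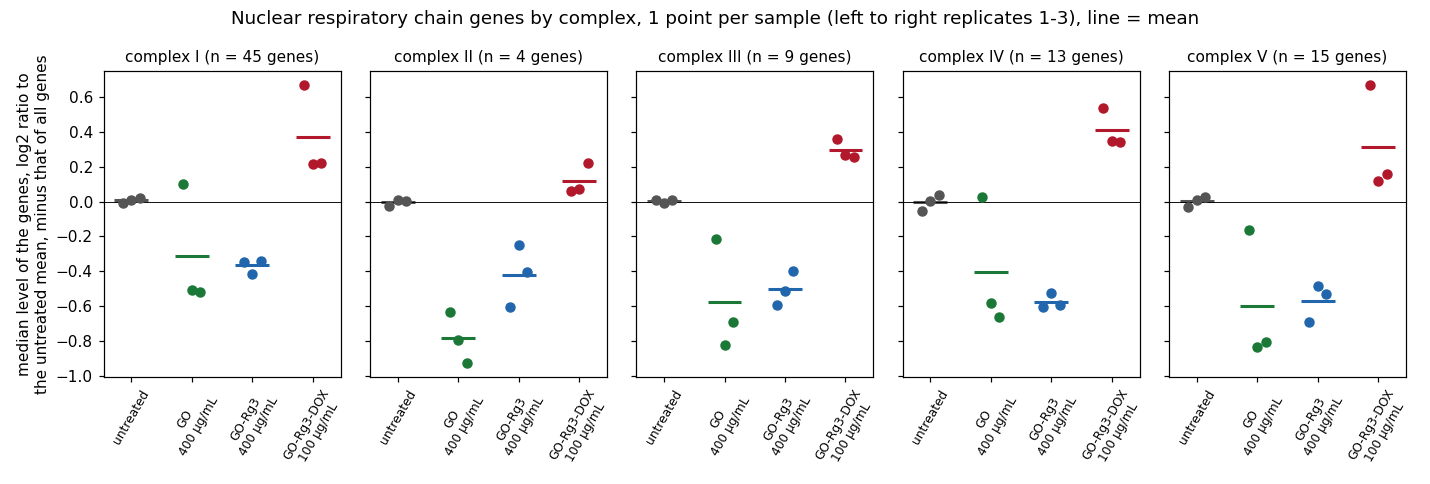
Median level of the nuclear genes of each respiratory chain complex in each of the 12 samples, as the log2 ratio to the untreated mean minus the same median over all genes tested, with the mean of each group as a line. Untreated samples lie near 0, GO–Rg3 samples lie below 0 in all 5 complexes, GO–Rg3–DOX samples lie above 0, and GO replicate 1 lies near 0 in complexes I and IV but at -0.64 in complex II.

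After GO, complex II had the lowest median of the 5 complexes. Its median was -0.79 relative to all genes, compared with -0.51 in complex III, -0.48 in complex V, -0.38 in complex IV and -0.33 in complex I. Its 3 GO samples were at -0.64, -0.79 and -0.93, all of them low, whereas those of complex I were at 0.10, -0.51 and -0.52. Complex III was at -0.22, -0.82 and -0.69 and complex V at -0.16, -0.83 and -0.81, so in GO replicate 2 both lay below complex II. Without GO replicate 1, complexes II, V, III, IV and I stood at -0.86, -0.83, -0.76, -0.62 and -0.53, and without GO replicate 2 complex I stood at -0.17. Genes that fell numbered 16 of 45 in complex I, 3 of 4 in complex II, 4 of 9 in complex III, 5 of 13 in complex IV and 6 of 15 in complex V, besides CYCS, to be read against the 15.4% of all genes that fell. These differences between complexes are descriptions, since the members of a complex are not replicates.

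Within complex I, the 7 core subunits, among them those that carry the flavin and the iron-sulfur clusters, stood at a median of 0.28 relative to all genes after GO, the 30 accessory subunits at -0.36 and the 8 assembly factors at -0.56. Only NDUFS1 of the core fell, together with 10 accessory subunits and 5 assembly factors. NDUFS1, the largest iron-sulfur subunit, was at 169.7, 175 and 168 CPM in untreated samples and 85.2, 135 and 120.2 CPM after GO, a log2 fold change of -0.59 (SE 0.14, adjusted p = 0.00379) in the edgeR quasi-likelihood test. GO replicate 1 was here the lowest of the GO samples, and the groups did not overlap. NDUFV1, the flavin-binding subunit that takes up electrons from NADH, was at 352, 317 and 335 CPM in untreated samples and 458, 373 and 393 CPM after GO. Its levels did not overlap either, but the adjusted p was 0.107 by the same test. NDUFS3, NDUFS7 and NDUFS8, further core subunits of the arm that reaches into the matrix, had log2 fold changes from -0.22 to 0.40 and did not pass. The core median also includes NDUFV2, with the highest value of all members after GO, 1.01 (adjusted p = 0.0207, same test). That value rests on 391 counts over all samples and is uncertain.

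NDUFAF4, a complex I assembly factor (chromosome 6 from 97337191 to 97345767 on GRCh37), fell the most. It was at 28.1, 28.8 and 29.1 CPM in untreated samples and 15.6, 11.1 and 9.34 CPM after GO, a log2 fold change of -1.26 (SE 0.17, adjusted p = 5.2e-05) in the edgeR quasi-likelihood test. The assembly factor NDUFAF2 went from 21.7, 20.1 and 18.7 CPM to 12.96, 7.49 and 8.57 CPM, a log2 fold change of -1.07 (SE 0.19, adjusted p = 0.000391) by that test. Among accessory subunits, NDUFB6 in the membrane arm showed the largest fall, from 46.5, 45.2 and 42.98 CPM to 26.8, 19.0 and 18.8 CPM, with a log2 fold change of -1.06 (SE 0.15, adjusted p = 7.03e-05) by the same test. All 3 genes had GO samples below every untreated sample, with GO replicate 1 the highest of the GO samples. At a log2 fold change under -1 as well, the threshold the study used, 5 members (5.56%) remained, namely these 3 with NDUFA4 and SDHD, against 2.62% of all genes.

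**Figure D2:**
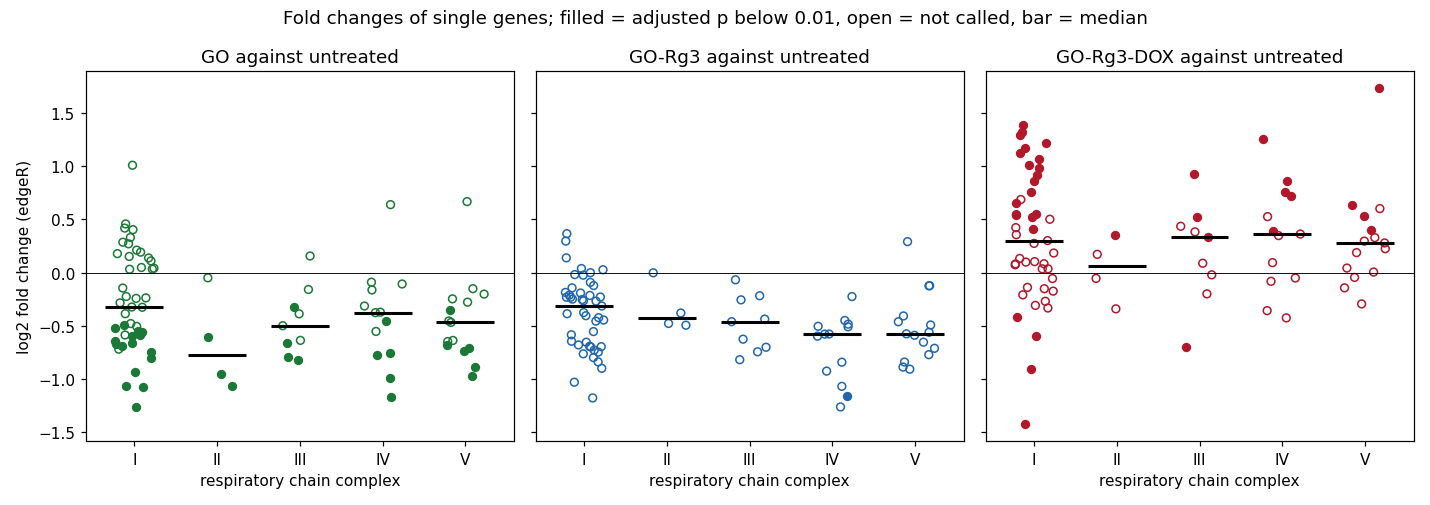
Log2 fold change of each member in complexes I to V after GO, GO–Rg3 and GO–Rg3–DOX against untreated cells, filled where the adjusted p was below 0.01, with a bar at the median of the complex. After GO the filled points lie below 0, after GO–Rg3 nearly all points lie below 0 but only NDUFA4 is filled, and after GO–Rg3–DOX 30 points are filled above 0 and 5 below.

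Complex II oxidizes succinate and also works in the citric acid cycle. Its iron-sulfur subunit SDHB (chromosome 1 from 17345159 to 17380527) was at 82.4, 81.6 and 81.6 CPM in untreated samples, 47.7, 40.9 and 38.7 CPM with GO, 49.8, 64.3 and 62.3 CPM with GO–Rg3 and 73.3, 77.5 and 85.7 CPM with GO–Rg3–DOX. The GO samples were the lowest group without overlap with any other, and the GO–Rg3 samples lay between GO and untreated. SDHB had a log2 fold change of -0.95 (SE 0.11, adjusted p = 2.51e-05) after GO in the edgeR quasi-likelihood test. The membrane anchors SDHC and SDHD, which bind the complex to the inner membrane, had log2 fold changes of -0.61 (SE 0.11, adjusted p = 0.000557) and -1.06 (SE 0.15, adjusted p = 8.86e-05). SDHD was at 47.9, 53.4 and 51.0 CPM in untreated samples and 25.7, 25.4 and 21.9 CPM after GO, low in all 3 GO samples. SDHA, the flavoprotein that holds the active site, behaved differently, with 115, 103.2 and 108 CPM in untreated samples and 105, 104 and 107 CPM after GO, which overlapped (log2 fold change -0.05, SE 0.11).

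In complex III, the Rieske iron-sulfur protein UQCRFS1 was at 108, 106 and 106 CPM in untreated samples and 67.8, 58.9 and 54.6 CPM after GO, a log2 fold change of -0.82 (SE 0.11, adjusted p = 5.05e-05) in the edgeR quasi-likelihood test. The subunits UQCRB and UQCR11 and the core protein UQCRC2 fell too, the last by 0.33 on the log2 scale (adjusted p = 0.00817). The core protein UQCRC1 (log2 fold change 0.16, adjusted p = 0.328) and the cytochrome c1 gene CYC1 (-0.39, adjusted p = 0.0169) did not pass. Cytochrome c itself, CYCS, which carries electrons from complex III to complex IV, was at 365, 386 and 377 CPM in untreated samples and 235, 234 and 208 CPM after GO, a log2 fold change of -0.74 (SE 0.11, adjusted p = 9.52e-05) by the same test. GO replicate 1 was level with GO replicate 2 here.

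In complex IV, NDUFA4, COX7B, COX6C, COX7C and COX7A2L fell after GO. COX7A2L takes part in joining complexes III and IV into supercomplexes. NDUFA4 (chromosome 7 from 10971570 to 10979780), a subunit first assigned to complex I, was at 279, 301 and 296 CPM in untreated samples and 176, 108 and 107 CPM after GO, a log2 fold change of -1.17 (SE 0.18, adjusted p = 0.000194) in the edgeR quasi-likelihood test. The small subunit COX7B went from 67.5, 69.0 and 68.8 CPM to 46.6, 26.4 and 30.9 CPM, a log2 fold change of -0.99 (SE 0.20, adjusted p = 0.00147) by that test. In both genes all GO samples were below all untreated samples, and GO replicate 1 was the highest of the GO samples. COX4I1, COX5A, COX5B, COX6A1, COX6B1, COX7A2 and COX8A had log2 fold changes from -0.55 to -0.09 and did not pass.

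In complex V, the F1 gamma subunit ATP5C1, the epsilon subunit ATP5E and the alpha subunit ATP5A1 fell after GO, as did ATP5F1, ATP5O and ATP5G3 of the stalk and membrane part. ATP5F1, which encodes the b subunit of the peripheral stalk (chromosome 1 from 111991486 to 112005395), was at 222, 217 and 224 CPM in untreated samples and 117.8, 117.6 and 101.6 CPM after GO, a log2 fold change of -0.98 (SE 0.12, adjusted p = 2.59e-05) in the edgeR quasi-likelihood test. The gene of the catalytic beta subunit, ATP5B, had the highest level of all members per kilobase of transcript, 1156 CPM per kb in untreated cells. It was at 983, 989 and 996 CPM in untreated samples and 1005, 864 and 805 CPM after GO, which overlapped (adjusted p = 0.226). ATP5D, the delta subunit of F1, was at 25.7, 19.8 and 21.7 CPM in untreated samples and 50.2, 27.7 and 29.2 CPM after GO, higher in every GO sample, with an adjusted p of 0.0746.

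**Figure D3:**
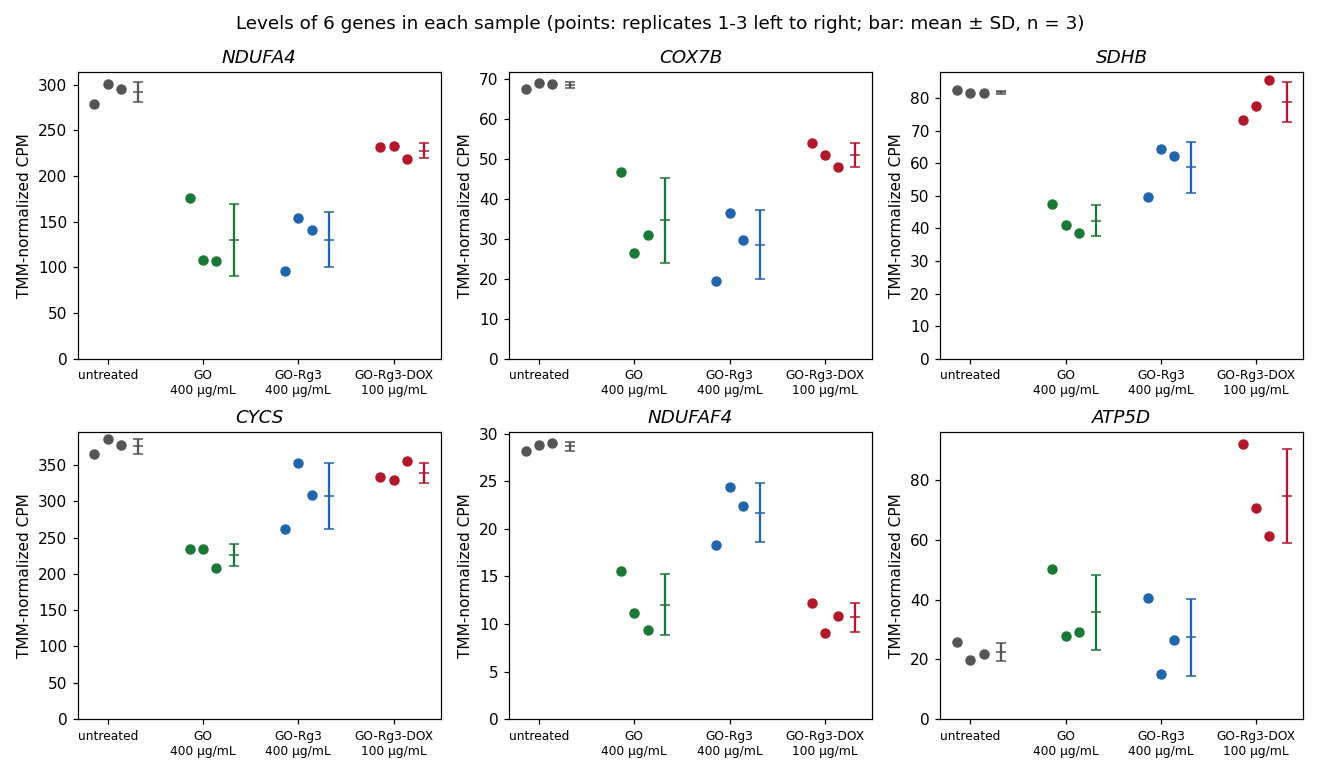
TMM-normalized CPM of NDUFA4, COX7B, SDHB, CYCS, NDUFAF4 and ATP5D in each sample, with the mean ± SD of each group (n = 3). NDUFA4 and COX7B are low after both GO and GO–Rg3, SDHB, CYCS and NDUFAF4 are lowest or near lowest after GO with GO–Rg3 in between, NDUFAF4 stays low after GO–Rg3–DOX, and ATP5D is highest after GO–Rg3–DOX.

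After GO–Rg3, the lower levels were spread over all complexes, although 1 gene passed the test. Medians relative to all genes were -0.31 in complex I, -0.43 in complex II, -0.46 in complex III, -0.58 in complex IV and -0.57 in complex V. The groups did not overlap in 31 of 45 genes of complex I, 3 of 4 of complex II, 8 of 9 of complex III, 12 of 13 of complex IV and 13 of 15 of complex V. These counts are to be read against the 16.6% of all genes that were lower without overlap. NDUFA4 was the 1 gene called, at 96.0, 154 and 141 CPM after GO–Rg3, a log2 fold change of -1.16 (SE 0.18, adjusted p = 0.00895) in the edgeR quasi-likelihood test. COX7B, at 19.4, 36.6 and 29.7 CPM, had the larger fold change of -1.26 (SE 0.21) and an adjusted p of 0.0105. All GO–Rg3 samples of both genes lay below all untreated samples, and GO–Rg3 replicate 1 was the lowest. Leaving out any untreated sample or GO–Rg3 replicate 1 or 3 left 0 members called, while 2 were called without GO–Rg3 replicate 2. NDUFA4 also missed the threshold with an offset for transcript length, where 1 other member was called.

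With an adjusted p below 0.05, a limit chosen after the data were seen, 16 members (17.8%) were lower after GO–Rg3, against 1.25% of all genes. They were 7 genes of complex I, 1 of complex II, 5 of complex IV and 3 of complex V. All 13 members of complex IV had log2 fold changes below 0, from -1.26 to -0.22. COX7A2, another small subunit, was at 142, 146 and 150.5 CPM in untreated samples and 54.8, 79.3 and 74.97 CPM after GO–Rg3, a log2 fold change of -1.07 with an adjusted p of 0.041. All 10 genes of the membrane part and stalk of complex V lay lower without overlap, against 16.6% of all genes. Their median was -0.62 relative to all genes, whereas the 5 of F1 stood at -0.12. NDUFB1, an accessory subunit of complex I, was at 22.2, 22.3 and 24.2 CPM in untreated samples and 7.51, 12.4 and 10.5 CPM after GO–Rg3 and had the lowest value in complex I, -1.18 (adjusted p = 0.0177). The core of complex I showed no such shift: its median was 0.00 relative to all genes, and NDUFV1 had a log2 fold change of 0.03. The number called differed between fits. DESeq2 called 23 members lower, against 1.52% of all genes. The fit of the 6 samples alone called 11 and the fit without a filter on low counts 44, without the shares of all genes given here. The median of the 90 members stayed between -0.46 and -0.45 relative to all genes with DESeq2, a replicate block or an offset for GC content.

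After GO–Rg3–DOX, medians relative to all genes were 0.36 in complex I, 0.11 in complex II, 0.39 in complex III, 0.42 in complex IV and 0.33 in complex V. Genes that rose numbered 17 of 45 in complex I, 1 of 4 in complex II, 3 of 9 in complex III, 5 of 13 in complex IV and 4 of 15 in complex V, besides NDUFA6-AS1. Set against the 25.5% of all genes that rose, the counts of complexes II and V were near the background. Without GO–Rg3–DOX replicate 1 the median of complex V was 0.17. The 5 that fell were NDUFAF4, NDUFAF5, NDUFAF6 and NDUFAF7, all assembly factors of complex I, and UQCRFS1 of complex III. With library totals alone, the median of all genes was -0.47 and that of the members lay 0.33 above it.

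Of the parts of complex I, the core had the highest median, 0.60 relative to all genes, with 4 of 7 genes called. NDUFV1 was at 721, 687 and 694 CPM, above all untreated samples, a log2 fold change of 1.07 (SE 0.14, adjusted p = 7.16e-06) in the edgeR quasi-likelihood test. NDUFS7, an iron-sulfur subunit close to the ubiquinone site, went from 7.72, 4.89 and 6.45 CPM to 14.5, 16.4 and 16.8 CPM, a log2 fold change of 1.32 (SE 0.27, adjusted p = 0.000441) by that test. The accessory subunit NDUFB7 rose from 22.6, 16.1 and 19.4 CPM to 47.8, 48.4 and 45.9 CPM, a log2 fold change of 1.29 (SE 0.26, adjusted p = 0.000519). NDUFA7 also rose (log2 fold change 1.39, adjusted p = 0.000706), but from 196 counts over all 12 samples and with a second entry for the same gene on the same strand, so its value is uncertain. The same holds for the core gene NDUFV2, with 391 counts and another annotated gene on its strand, which did not pass and whose value is the median of the core.

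ATP5D of the F1 part of complex V (chromosome 19 from 1241745 to 1244824) had the largest rise of all members. Its 3 GO–Rg3–DOX samples were at 92.2, 70.7 and 61.5 CPM, all above every untreated sample, a log2 fold change of 1.74 (SE 0.29, adjusted p = 8.66e-05) in the edgeR quasi-likelihood test. ATP5B, at 1606, 1454 and 1563 CPM, rose by a log2 fold change of 0.64 (SE 0.10, adjusted p = 3.51e-05), and ATP5A1 by one of 0.40 (adjusted p = 0.00104). UQCRC1 of complex III was at 273, 266 and 267 CPM in untreated samples and 544, 487 and 498 CPM after GO–Rg3–DOX, a log2 fold change of 0.92 (SE 0.13, adjusted p = 1.06e-05). In complex IV the genes that rose were COX5B, COX6B1, COX8A, COX7A2L and NDUFA4L2. In complex II only SDHA passed (log2 fold change 0.35, adjusted p = 0.009, but -0.070 with library totals alone). With a log2 fold change above 1 as well, 10 members (11.1%) remained, against 12.6% of all genes.

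NDUFAF4 was at 12.2, 9.09 and 10.9 CPM after GO–Rg3–DOX, below every untreated sample, a log2 fold change of -1.42 (SE 0.17, adjusted p = 2.82e-06) in the edgeR quasi-likelihood test. NDUFAF7, a methyltransferase that acts on complex I during its assembly, went from 11.98, 14.2 and 13.6 CPM to 6.63, 6.72 and 7.89 CPM (log2 fold change -0.90, SE 0.13, adjusted p = 2.01e-05). NDUFAF5 and NDUFAF6 had log2 fold changes of -0.59 and -0.42. Assembly factors were divided, since NDUFAF3 and ATP5SL rose, by 1.12 and 0.86. UQCRFS1 was at 62.6, 64.2 and 71.5 CPM, a log2 fold change of -0.69 (SE 0.11, adjusted p = 4.31e-05). The comparisons with GO and with GO–Rg3–DOX share their untreated samples, and UQCRC2, COX7A2L and ATP5A1 passed in both with opposite signs. Their log2 fold changes were -0.33, -0.46 and -0.35 after GO and 0.33, 0.39 and 0.40 after GO–Rg3–DOX. The latter were -0.080, -0.019 and -0.011 with library totals alone.

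GO–Rg3 was compared with GO directly, both at 400 µg/mL, since the study asked whether Rg3 alters the effect of GO. Of the 90 members, 4 (4.44%) were higher after GO–Rg3 than after GO and 0 lower, against 7.33% and 6.25% of all genes. At an unadjusted p below 0.05, 15 members were lower and 15 higher. DESeq2 called 1 lower and 7 higher, against 7.89% and 11.4% of all genes. The 4 genes were NDUFAF4, SDHB, ATP5F1 and CYCS. ATP5F1 was at 140.1, 191 and 169 CPM after GO–Rg3, above all GO samples and below all untreated samples, with a log2 fold change of 0.57 (SE 0.12, adjusted p = 0.00286) in the edgeR quasi-likelihood test. CYCS was at 262, 353 and 308 CPM, with a log2 fold change of 0.45 (SE 0.11, adjusted p = 0.0063). For NDUFAF4, the GO–Rg3 samples were at 18.3, 24.4 and 22.4 CPM, with a log2 fold change of 0.86 (SE 0.17, adjusted p = 0.00204). SDHB differed by 0.47 (SE 0.11, adjusted p = 0.00716). In all 4 genes the GO–Rg3 samples lay between GO and untreated without overlap.

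The other complexes showed no common direction between the 2 materials. Medians of GO–Rg3 against GO, relative to all genes, were 0.37 in complex II, 0.13 in complex III, -0.10 in complex V, -0.13 in complex I and -0.24 in complex IV. Without GO replicate 1 the values were 0.12 in complex V, 0.029 in complex I and 0.045 in complex IV. The number of higher members was 7 without GO replicate 1 or GO–Rg3 replicate 1, 3 without GO replicate 2, 1 without GO–Rg3 replicate 2, and 0 without GO replicate 3 or GO–Rg3 replicate 3. The log2 fold change of NDUFA4 between the 2 materials was 0.00 (SE 0.18).

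The promoters of the 4 genes that were higher after GO–Rg3 than after GO, and of NDUFA4, the 1 gene called after GO–Rg3, are given to show the motifs they hold. They run from 250 bases before to 50 after the RefSeq start site on GRCh38.p14 and read 5′ to 3′ on the gene's strand. Capitals mark a match on either strand to the NRF1 core GCGCATGC, the GABP motif CCGGAAG, the cyclic AMP response element TGACGTCA, the YY1 motif AAGATGG or the TATA box TATAAA. The table names ATP5F1 as ATP5PB and NDUFA4 as COXFA4. The windows are chr1:17053983-17054282 (minus strand) for SDHB, chr7:25125211-25125510 (minus) for CYCS, chr6:96897842-96898141 (minus) for NDUFAF4, chr1:111449214-111449513 (plus) for ATP5F1 and chr7:10940104-10940403 (minus) for NDUFA4.
SDHB: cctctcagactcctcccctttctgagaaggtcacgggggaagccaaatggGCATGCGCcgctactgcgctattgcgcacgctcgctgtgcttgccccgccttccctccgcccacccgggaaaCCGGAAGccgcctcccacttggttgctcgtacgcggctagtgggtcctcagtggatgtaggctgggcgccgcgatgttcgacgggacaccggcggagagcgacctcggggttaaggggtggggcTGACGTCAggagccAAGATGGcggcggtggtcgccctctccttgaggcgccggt
CYCS: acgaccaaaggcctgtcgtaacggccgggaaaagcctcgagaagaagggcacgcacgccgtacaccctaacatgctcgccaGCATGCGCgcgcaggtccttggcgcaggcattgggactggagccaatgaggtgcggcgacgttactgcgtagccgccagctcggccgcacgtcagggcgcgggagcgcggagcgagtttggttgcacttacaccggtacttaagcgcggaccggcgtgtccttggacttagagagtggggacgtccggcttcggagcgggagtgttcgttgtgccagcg
NDUFAF4: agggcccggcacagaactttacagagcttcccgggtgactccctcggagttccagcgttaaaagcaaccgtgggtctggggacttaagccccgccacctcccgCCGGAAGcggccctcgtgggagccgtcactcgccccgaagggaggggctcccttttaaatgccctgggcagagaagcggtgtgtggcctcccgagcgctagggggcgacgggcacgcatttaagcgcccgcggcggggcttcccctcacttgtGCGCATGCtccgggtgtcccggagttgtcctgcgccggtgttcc
ATP5F1: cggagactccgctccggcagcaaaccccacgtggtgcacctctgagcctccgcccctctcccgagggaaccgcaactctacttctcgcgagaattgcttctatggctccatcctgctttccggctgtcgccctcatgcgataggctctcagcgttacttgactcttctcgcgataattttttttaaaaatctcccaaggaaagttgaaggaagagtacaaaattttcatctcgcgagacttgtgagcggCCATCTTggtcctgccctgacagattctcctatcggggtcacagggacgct
NDUFA4: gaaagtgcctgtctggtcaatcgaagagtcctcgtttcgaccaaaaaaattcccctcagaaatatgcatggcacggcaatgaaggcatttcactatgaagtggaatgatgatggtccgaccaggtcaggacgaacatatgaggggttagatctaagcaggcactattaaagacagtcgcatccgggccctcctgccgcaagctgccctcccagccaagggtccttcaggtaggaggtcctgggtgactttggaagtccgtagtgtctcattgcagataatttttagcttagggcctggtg
SDHB, CYCS and NDUFAF4 hold the NRF1 core, SDHB holds 4 of the 5 motifs, ATP5F1 holds the YY1 motif alone, and NDUFA4 holds none of them in this window.

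Promoters were matched for 75 of the 90 members. The NRF1 core was present in 22.7% of these and in 3.05% of the 35116 promoters of the table. The YY1 motif was present in 22.7% against 5.84%, the GABP motif in 26.7% against 10.3%, the cyclic AMP response element in 6.67% against 1.85% and the TATA box in 8% against 11.5%. Of 29 matched members that fell after GO, 27.6% held the NRF1 core, and of 26 that rose after GO–Rg3–DOX, 19.2% did. The shares for the YY1 motif were 27.6% and 23.1%. For the GABP motif they were 17.2% and 19.2%, both below the 26.7% of all matched members. The cyclic AMP response element had 3.45% and 3.85%, and the TATA box 10.3% and 11.5%. Few promoters stand behind these shares, 8 for the NRF1 core and 8 for the YY1 motif after GO. A match describes the letters of the window and not a bound site.

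Of the paralog groups, the ubiquitous and liver forms passed the filter, and the heart and muscle forms COX6A2 and COX7A1, the lung form COX4I2 and the testis forms COX6B2, COX7B2 and COX8C did not. NDUFA4 stood at 143.5 CPM per kb in untreated cells and its paralog NDUFA4L2 at 0.421 CPM per kb. NDUFA4L2, known as a hypoxia-induced gene, was at 0.344, 0.448 and 0.400 CPM in untreated samples and 1.03, 0.791 and 1.03 CPM after GO–Rg3–DOX, a log2 fold change of 1.25 (SE 0.37, adjusted p = 0.00774) in the edgeR quasi-likelihood test, from 209 counts over all samples. It lies opposite SHMT2 on the other strand, and whether counting used the strand is not given in the sources used here. The 3 genes ATP5G1, ATP5G2 and ATP5G3 encode the same mature c subunit of the proton-conducting ring and stood at 386, 201 and 430 CPM per kb in untreated cells. After GO only ATP5G3 fell, by 0.74 on the log2 scale (adjusted p = 0.00034), and after GO–Rg3–DOX only ATP5G2 rose, by 0.53 (adjusted p = 0.00504). After GO–Rg3 all 3 were lower in every sample, with log2 fold changes from -0.59 to -0.46 and adjusted p-values of 0.031 to 0.144. Differences between these paralogs were not tested. UQCRH fell short of the threshold after GO (-0.64, adjusted p = 0.0104).

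The 13 subunits encoded by mitochondrial DNA moved apart from the nuclear subunits of the same complexes. All 13 rose after GO, with log2 fold changes from 1.46 to 2.10 (median 1.73), and all 13 rose after GO–Rg3–DOX, from 0.99 to 1.94 (median 1.72). After GO–Rg3, edgeR called 0 of the 13, with 0 at an unadjusted p below 0.05 and values from 0.12 to 0.49 (median 0.30). In all of them except MT-ND3, every GO–Rg3 sample nevertheless lay above every untreated sample. The share of all genes that were higher in this way after GO–Rg3 was not computed. MT-CO1, the catalytic subunit of complex IV, was at 10368, 12009.6 and 12843 CPM in untreated samples, 51043, 23196 and 29212 after GO, 13347, 14195 and 14522 after GO–Rg3, and 60082, 36697 and 35892 after GO–Rg3–DOX. GO replicate 1 and GO–Rg3–DOX replicate 1 were the highest of their groups. GO–Rg3 against GO gave 13 of 13 lower, from -1.61 to -1.28. In complex IV, for instance, the GO samples stood at 2.12, 0.91 and 1.17 for the mitochondrial genes and at 0.03, -0.58 and -0.66 for the nuclear genes, on the log2 scale relative to all genes. The GO–Rg3 samples stood at 0.24, 0.30 and 0.30 against -0.61, -0.53 and -0.59. The libraries were of polyadenylated RNA, so these are levels of the polyadenylated transcripts.

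**Figure D4:**
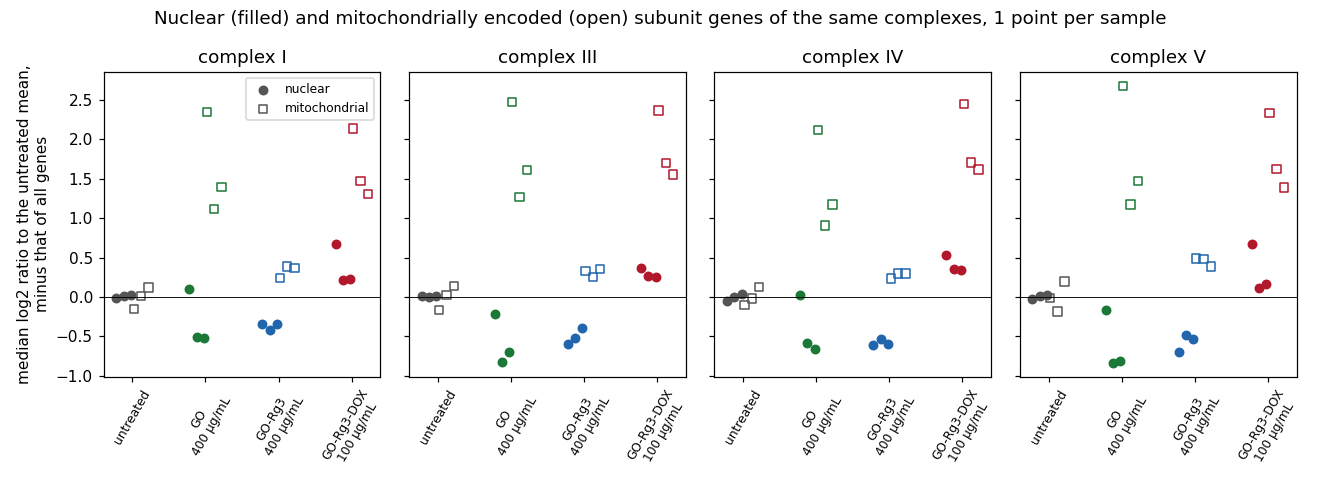
Median level of nuclear (filled circles) and mitochondrially encoded (open squares) genes of complexes I, III, IV and V in each sample, as the log2 ratio to the untreated mean minus that of all genes tested. The mitochondrial genes lie above the nuclear genes in every treated sample; the highest values are in replicate 1 of GO and of GO–Rg3–DOX.

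Of 12 regulators of these genes (transcription factors and coactivators, and factors of mitochondrial transcription), 4 fell and 1 rose after GO, 0 were called after GO–Rg3 (2 lower at an unadjusted p below 0.05) and 9 fell after GO–Rg3–DOX. Of all genes, 15.4% fell and 12.1% rose after GO and 30.5% fell after GO–Rg3–DOX. The transcription factor NRF1 was at 20.2, 20.2 and 19.4 CPM in untreated samples and 5.48, 6.68 and 4.42 CPM after GO–Rg3–DOX, a log2 fold change of -1.85 (SE 0.14, adjusted p = 2.75e-08) in the edgeR quasi-likelihood test. After GO, NRF1 was at 22.0, 22.8 and 19.7 CPM, which overlapped with untreated (log2 fold change 0.11). GABPA, ESRRA and POLRMT were not called in any of the 4 comparisons. All GO–Rg3–DOX samples of GABPA nevertheless lay below all untreated samples (-0.57 on the log2 scale, adjusted p = 0.0143, same test). The other GABP gene listed, GABPB1, was among the 9 that fell after GO–Rg3–DOX and was called in that comparison alone. Its mean there was 14.4 CPM against 42.4 CPM in untreated cells (-1.56 on the log2 scale, adjusted p = 4.3e-08, same test). TFAM, which packages mitochondrial DNA and is a factor of its transcription, was at 95.7, 94.2 and 87.8 CPM in untreated samples and 47.4, 69.0 and 63.7 after GO. TFAM fell after GO by 0.62 on the log2 scale (adjusted p = 0.00112) and after GO–Rg3–DOX it fell by 0.77 (adjusted p = 6.31e-05). It was at 82.7, 99.97 and 91.6 CPM after GO–Rg3, within the untreated range for 1 sample and on either side of it for the others. The mitochondrial transcription factor TFB2M fell after GO and after GO–Rg3–DOX, with log2 fold changes of -1.33 and -1.44, and was higher after GO–Rg3 than after GO (0.98, adjusted p = 0.000801). PPARGC1A, the coactivator of mitochondrial biogenesis, was the 1 regulator that rose after GO and among the 9 that fell after GO–Rg3–DOX, in both cases from very low levels. It was at 0.212, 0.256 and 0.165 CPM in untreated samples and 0.431, 0.856 and 0.538 CPM after GO, a log2 fold change of 1.57 (SE 0.37, adjusted p = 0.00436) in the edgeR quasi-likelihood test. It was at 0 in all 3 GO–Rg3–DOX samples, for which no fold change is given.

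Of 36 further assembly factors and accessory proteins outside the NDUF and ATP5 names, 33 passed the filter. After GO 8 fell and 0 rose, against 15.4% and 12.1% of all genes. At an unadjusted p below 0.05, 14 were lower and 1 higher after GO. With GO–Rg3 1 fell, against 0.105% of all genes. With GO–Rg3–DOX 9 fell and 6 rose, no larger a share than the 30.5% and 25.5% of all genes. TMEM70, needed for assembly of the ATP synthase, was at 25.1, 26.7 and 23.6 CPM in untreated samples, 7.36, 8.85 and 7.50 with GO, 12.6, 17.8 and 15.4 with GO–Rg3 and 4.37, 5.93 and 5.68 with GO–Rg3–DOX. None of the treated groups overlapped with untreated, and the log2 fold changes were -1.66 (adjusted p = 1.6e-06), -0.72 (adjusted p = 0.0222) and -2.23 (adjusted p = 8.44e-09) in that order. COX17, the copper chaperone of complex IV, was the factor that fell after GO–Rg3, with a log2 fold change of -1.06 (adjusted p = 0.00895), and after GO its value was -0.96 (adjusted p = 0.000424). SCO2, which inserts copper into complex IV, fell after GO–Rg3–DOX alone among the comparisons with untreated cells, with a log2 fold change of -1.48 (adjusted p = 5.15e-06). LRPPRC and ATPIF1 were not called in any comparison.

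The fold changes of the members followed the base composition of their transcripts. Across the 90 genes, which are not independent replicates and share their libraries, Spearman's correlation between log2 fold change and transcript GC content was 0.78 for GO, 0.41 for GO–Rg3 and 0.76 for GO–Rg3–DOX. Over 16622 genes tested it was 0.43, 0.20 and 0.36. At or below the member median of 48.6% GC, 31 of 45 genes fell after GO, and above it 4 of 45. After GO–Rg3–DOX, 4 of 45 rose and 5 fell at or below the median, and 27 of 45 rose and 0 fell above it. The shares of all genes on either side of this GC content were not computed, so these counts are descriptions of the members. NDUFAF4, which fell the most after both GO and GO–Rg3–DOX, has a GC content of 36.5%. ATP5D, with the largest rise after GO–Rg3–DOX, has 68.7%. With an offset for GC content in the fit, 30 members fell after GO, 23 of them among the 35, and 38 rose and 4 fell after GO–Rg3–DOX. The median relative to all genes was then 0.34 for GO–Rg3–DOX, -0.39 for GO and -0.45 for GO–Rg3. Of the 4 genes higher after GO–Rg3 than after GO, ATP5F1 stayed called (log2 fold change 0.39, adjusted p = 0.00392), while NDUFAF4, SDHB and CYCS were no longer called and 3 other members were. Member transcripts were also short, with a median length of 696.5 bases against 1722 over all genes, and the correlation with length was -0.08, 0.39 and -0.20 for the 3 treatments. What part base composition has in these changes was not tested.

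**Figure D5:**
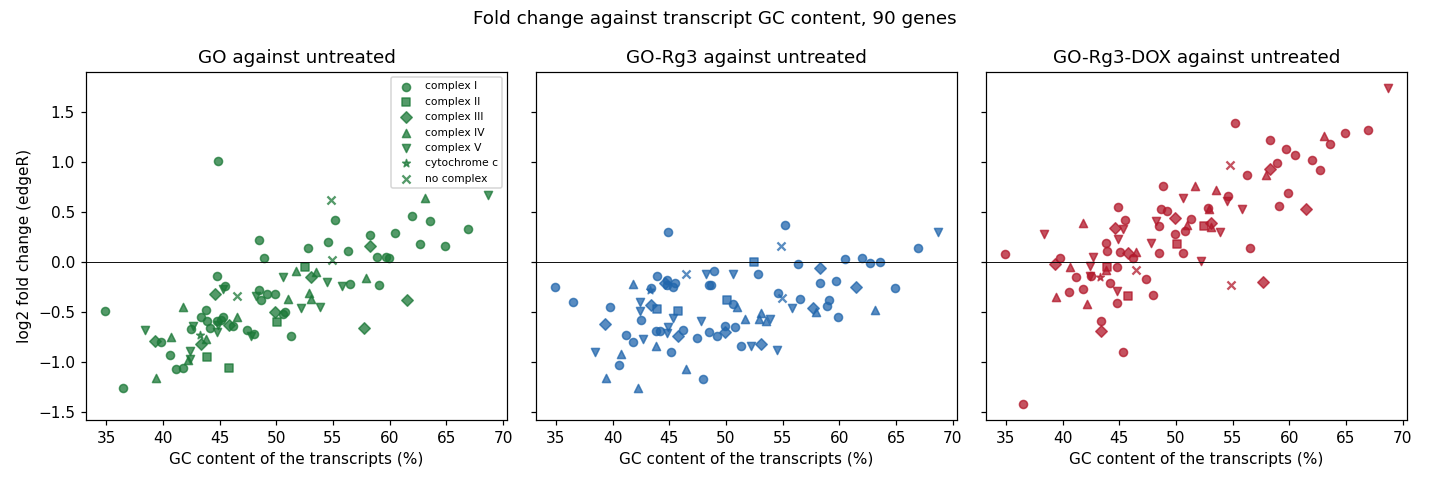
Log2 fold change of the 90 members against the GC content of their transcripts, with a marker for each complex, after GO, GO–Rg3 and GO–Rg3–DOX. Members of low GC content have the lower values after GO and after GO–Rg3–DOX, and after GO–Rg3 the values lie below 0 across nearly the whole range.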

How the data were processed

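Samples were grouped by the treatment in their labels, and the members and gene lists were chosen with earlier results of these data known. The authors prepared libraries of polyadenylated RNA with a stranded kit, mapped the reads to GRCh37 and ran featureCounts for each Ensembl gene. They deposited unnormalized whole-number counts for 63677 genes. The annotation release and the strand setting of the counting are not given in the sources used here. A gene was kept where 3 or more samples held 10 or more counts, the filter the study used. Libraries were scaled by TMM, and all 12 samples were fitted together with the quasi-likelihood test of edgeR 4.0.16 in R 4.3.3, without a replicate block, where the study used DESeq2. The Benjamini-Hochberg adjustment ran over 17092 genes in each of 4 comparisons, and the limit for a call was an adjusted p of 0.01. SE denotes the standard error, computed as the fold change divided by the square root of the test statistic. CPM are TMM-normalized, per kilobase where genes are compared. Per-sample levels used a pseudocount of 0.1 CPM. Differences of medians are relative to all genes tested.

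Transcript length and GC content are medians over the protein-coding transcripts of a gene in an annotation on GRCh37, with values for 97.25% of the genes tested. Promoters came from RefSeq (GRCh38.p14). Genes named singly are the core subunits, complex II, paralog groups and, in each comparison, up to 5 largest rises and falls among called members, of which 1 member is not reported here. Other members (NDUFB1, NDUFAF3, UQCRB, UQCR11, COX5A, COX5B, COX6C, COX7C, ATP5C1, ATP5E, ATP5O, ATP5SL) and the regulators, assembly factors and MT-CO1 were named after their values were seen. The fit was tested on simulated counts with known changes. Alternatives were other scalings and filters, DESeq2 1.42.0, a replicate block, offsets for GC content and length (loess, span 0.5), the 6 samples compared alone and each sample left out. The limit of 0.05 was added after the data were seen. The sources used here name no molecular identifiers, so depth describes counting error only.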

Additional observations from a re-analysis of the deposited data

How the results depend on the processing

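The median of the members relative to all genes kept its sign under the GC and length offsets, library totals, DESeq2, the replicate block and TMM without mitochondrial genes in each comparison with untreated cells. For GO, 0 members were called higher, but 2 without a filter on low counts, 1 with DESeq2, the GC offset, the GC offset with the replicate block or the length offset with the block, and 3 at an adjusted p below 0.05. The GC offset moved complex II after GO to -0.67, also with the block. For GO–Rg3, 1 member was called lower, against 0 when 10 counts were required in every sample, 5 with library totals alone or the GC offset, 7 with the length offset and block, 11 in the fit of 6 samples, 16 with the GC offset and block or at 0.05, 23 with DESeq2 and 44 without a filter. Of all genes, 0.146% were lower with library totals alone, 0.626% with the GC offset and 1.52% with DESeq2. The cause of the differing counts of members was not tested. After GO–Rg3, complex I moved to -0.38 with the GC offset (with or without the block) and to -0.37 with NDUFA4 and NDUFA4L2 counted there. The length offset moved complexes IV and V to -0.49 and -0.48, with and without the block. For GO–Rg3–DOX, library totals alone gave 24 lower and 11 higher members and turned SDHA (-0.070), UQCRC2 (-0.080), COX7A2L (-0.019) and ATP5A1 (-0.011), with the median of all genes at -0.47. Without a filter 9 members were lower, complexes I, III and IV moved to 0.16, 0.20 and 0.22, and complex II turned to -0.079. Complex II also turned to -0.0057 with the length offset and to -0.0027 with that offset and the block, while the GC offset gave 0.22 with or without it. Complex III moved to 0.30 with the GC offset, 0.29 with that offset and the block, and 0.25 with the length offset, with or without the block. Complex IV was at 0.29 with the length offset, with or without the block, and 3 members were lower with the length offset. For GO–Rg3 against GO, 4 members were called higher, against 0 in the fit of 6 samples, 7 with DESeq2 or without a filter, 8 with the length offset and block and 9 at 0.05. None was called lower in the main comparison, against 8 without a filter, 2 at 0.05 and 1 with DESeq2.

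The labels do not say what the replicate numbers stand for, and the main fit used no block. Deviations from the group means correlated at a mean of 0.091 (-0.024 to 0.253) between samples of the same number. Between samples of other numbers the mean was -0.045 (-0.257 to 0.212), so a weak pairing by number is not excluded. The replicate block gave 43 lower members and 1 higher after GO, 4 lower after GO–Rg3, 34 higher and 5 lower after GO–Rg3–DOX, and 6 higher and 2 lower for GO–Rg3 against GO. Leaving out 1 sample gave 18 to 56 lower and 0 to 1 higher members after GO, 0 to 2 lower after GO–Rg3, 21 to 27 higher after GO–Rg3–DOX, and 0 to 7 higher and 0 to 1 lower for GO–Rg3 against GO. The share of all genes is given above for GO without GO replicate 1, and not for the other fits with 1 sample left out. Complex medians then ranged from -0.53 to -0.17 (complex I), -0.76 to -0.37 (complex III), -0.62 to -0.29 (complex IV) and -0.83 to -0.37 (complex V) after GO, from -0.38 to -0.29 (complex I) after GO–Rg3, from 0.29 to 0.44 (complex III) and 0.17 to 0.46 (complex V) after GO–Rg3–DOX and from -0.36 to 0.045 (complex IV) for GO–Rg3 against GO. For single genes called in the main fit, 773 results under alternatives were compared. Of these, 650 kept their direction and side of the threshold, 4 changed sign, and the others kept the direction but missed the threshold. These genes were chosen because they had passed, so a kept direction says little, and genes not called in the main fit were not followed. With 3 samples a group and 1 that stood apart after GO, counts of calls varied between fits. The median of all members kept its sign against untreated cells in the alternatives listed for it above.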
